A study of Mus musculus with 57 samples.

Results

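Heterozygous (HT) carriers of the Shank3 delta C allele were compared with wild-type (WT) mice, both exposed early in life to fluoxetine. Libraries were chosen by genotype and drug, through the ending of each library name, and the sexes were weighted equally. This gave 20 of the 56 libraries analysed: 5 HT females, 5 HT males, 5 WT females and 5 WT males. Every mouse was of the C57BL/6J strain, and the pups of both genotypes took up the drug with their mother's milk for 3 weeks, between postnatal days 3 and 24. Prefrontal cortex was collected at postnatal day 25. The remaining libraries carried the same genotypes under vehicle (18 libraries) or lithium (18 libraries), given over the same days. The dose, the drug level in the pups and the litters are not given in the sources used here. Pups of a dam share its milk, so the p-values below measure the spread between libraries as if every mouse were independent.

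Shank3 is a scaffold protein of the postsynaptic density, where it links glutamate receptors and adhesion molecules to the actin cytoskeleton of excitatory synapses, and loss of a copy of the human gene causes Phelan-McDermid syndrome. Fluoxetine blocks the serotonin transporter and so raises serotonin outside the cells. Synaptic activity that lets calcium into a neuron switches on immediate early genes, among them the transcription factors of the Fos, Egr and Nr4a families, through CREB and serum response factor bound at their promoters.

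The 20 libraries held 23839573 to 35916099 reads over the listed genes. Values are normalised counts, which are read counts divided by a size factor per library. The cortical excitatory markers Slc17a7 and Tbr1 lay at 39070.5 to 54964 and 2581 to 4405 in HT libraries, against 28646 to 61297 and 1405 to 4310.2 in WT libraries, and the choroid plexus gene Ttr did not exceed 15.7. Xist and Ddx3y disagreed with the labelled sex in 0 libraries. The olfactory bulb lies in front of this cortex, and its markers differed widely between libraries: Doc2g ranged over 103 to 2571 in HT and 107 to 4584 in WT libraries, and Eomes over 3.37 to 697 in HT and 0 to 1317 in WT libraries. The level of 5 such markers, as a mean of log2(normalised count + 1) relative to all 56 libraries, was -1.43 to 0.86 in HT females. In WT females it was 3.00, 2.46 and 3.15 in libraries 1, 2 and 4, and -2.30 and -3.34 in libraries 3 and 5. On the first principal component of the 20 libraries, which carried 25.7% of the variance, WT females 1 and 4 stood apart at 60.9 and 69.7. WT female 2 lay at 38.2, close to HT male 5 at 33.7. The female calls are also given without WT females 1, 2 and 4.

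Shank3 itself (ENSMUSG00000022623, chromosome 15, 89499623 to 89560261, GRCm38) was measured first. Its normalised counts were 6796, 8468, 8014, 7682 and 7909 in HT females, against 5170.1, 7604, 8913, 5362 and 9844 in WT females. In males they were 8080.4, 8755, 8252, 8736 and 6531 in HT, against 7481, 7282, 6492, 9099 and 8843 in WT. The groups overlapped in both sexes. With the sexes averaged, HT over WT gave a log2 fold change of 0.08 ± 0.08 (± SE), with an adjusted p of 0.734 in limma. The WT females were the most spread, and the 3 lowest of them were the olfactory-rich libraries 1, 4 and 2. Without these 3 the averaged log2 fold change was -0.11 and the female one -0.27, neither of them called. With GC and length correction and the olfactory covariate together, the female value was 0.22 and was called (limma adjusted p = 0.0367). Counts join all transcripts of a gene, and the labels do not say which bases the allele lacks, so this value does not check the genotype. Around the gene, 43 tested genes began within 2 Mb of its start, 0 were called and 4 had an unadjusted p under 0.05, with a median log2 fold change of -0.02. Arsa, the lysosomal arylsulfatase A encoded just upstream, had 0.12 ± 0.06.

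Across the transcriptome, averaging the sexes left no single gene past the test. Of 18026 genes, 0 (0.0%) had a Benjamini-Hochberg adjusted p below 0.05 in limma, the threshold used for every call below. At an unadjusted p under 0.05 there were 2023 genes in limma and 1964 in edgeR. The smallest adjusted p was 0.14, and it belonged to the immediate early gene Egr3. edgeR, a count model run on the whole reads recovered from the values, called 1 gene, Egr3, as lower in HT. Within females, 461 genes (2.56%) were called, 312 higher (1.73%) and 149 lower (0.827%) in HT, and 4165 had an unadjusted p under 0.05. edgeR called 369 in females, 175 higher and 194 lower, and 320 were called by both tools. Within males, limma called 1 gene (0.00555%), as did edgeR, and it was the same gene. In simulated counts of this design, limma recovered 72% of genes changed by 0.5 and 94% of those changed by 1 on the log2 scale with the sexes averaged, 53% and 86% in females, and 63% and 87% in males. False calls in these runs were 6 of 172, 8 of 147 and 7 of 157. The simulated libraries carried no olfactory or GC differences, unlike the real ones.

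**Figure D1:**
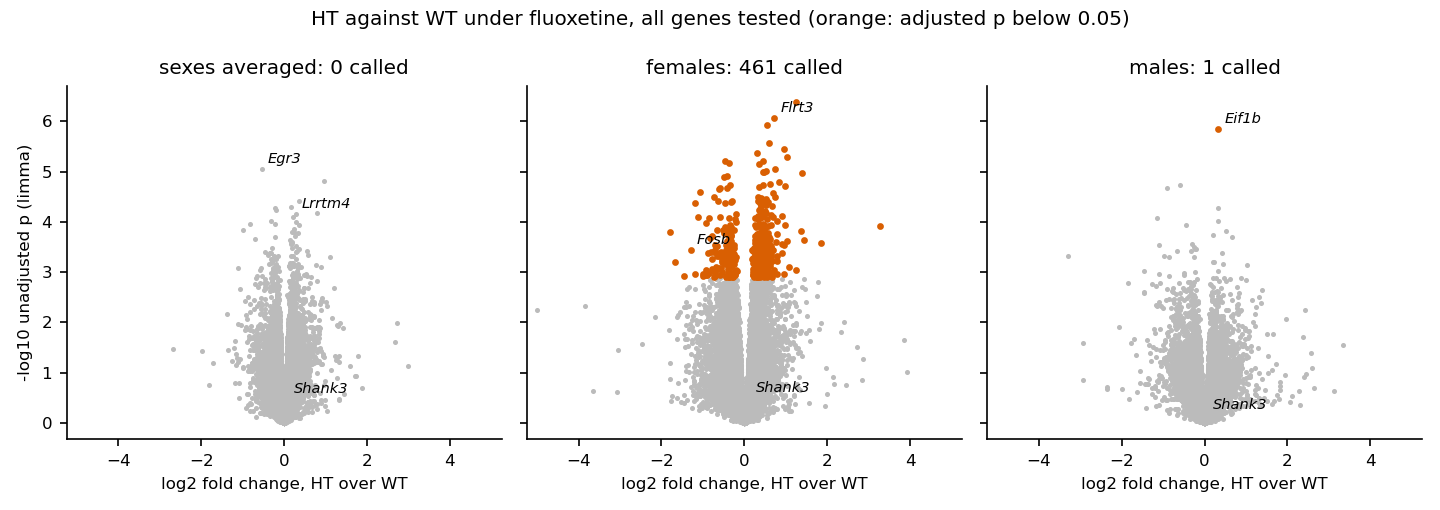
Each point is 1 of 18026 genes: log2 fold change of HT over WT under fluoxetine on the x axis and -log10 of limma's unadjusted p on the y axis, for the sexes averaged, females and males. Genes with an adjusted p below 0.05 are orange: 0 with the sexes averaged, 461 in females and 1, Eif1b, in males.

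The female count rested on few libraries and on 1 estimate of each gene's spread, shared by all 12 groups. With only the compared groups in the fit, the count was 1. It was 0 without the 3 olfactory-rich WT females, a setting chosen after the data were seen, which leaves WT females with 2 libraries. It was 11, 4 and 5 without WT female 1, 2 or 4 alone, and 2373 and 3123 without WT female 3 or 5. It was 29, 18, 29, 727 and 501 without HT females 1 to 5 in turn. With the sexes averaged the count was 2 without WT female 1, 143 without WT female 5 and 1 without WT male 5. No gene named below kept its female call without the 3 olfactory-rich WT females. With 1 library left out at a time, Dusp19 was called each time, Flrt3 not without WT female 4, Slitrk4 and Pcnx4 not without WT female 2, Zyx not without WT female 2 or 4, and Eif1a not without WT female 1, 2 or 4. The other female calls named below that were followed in this way were lost without HT female 1, 2 or 3 or WT female 2 or 4. All of those but Egr3 were also lost without WT female 1, and some without HT female 4 or 5. Nr4a1 and Fosl2 were followed as members of their list alone.

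Egr3, a zinc finger transcription factor induced by neuronal activity, was the gene with the smallest p in the averaged comparison, and its value was below 0 in both sexes. Its normalised counts (ENSMUSG00000033730, chromosome 14, 70077203 to 70082614) were 3816, 2860.0, 2499, 3008 and 3736 in HT females, against 3062, 5233, 6278, 4286 and 5446 in WT females. In males they were 3684, 4008, 3502, 3669 and 3940.1 in HT, against 5576, 5041, 6186, 6849 and 3552 in WT. All but 1 of the WT males lay above every HT male, and 4 of 5 WT females lay above every HT female. The averaged log2 fold change was -0.54 ± 0.11 (adjusted p = 0.14 in limma and 0.0469 in edgeR), with -0.59 ± 0.15 in females (limma adjusted p = 0.0356) and -0.50 ± 0.15 in males (limma adjusted p = 0.576). The averaged value was called without WT female 1 (adjusted p = 0.00514), without WT female 5 (0.0225) and without WT male 5 (0.00838), all in limma. Without the 3 olfactory-rich WT females it was -0.70, limma adjusted p = 0.00598, and with the olfactory level as a covariate -0.55, limma adjusted p = 0.0136. Under vehicle the genotype difference of Egr3 was 0.09 ± 0.12 and under lithium 0.05 ± 0.12. The difference between the fluoxetine and vehicle effects was -0.63 ± 0.16 and was not called (limma adjusted p = 0.9999, and 0.0984 without the 3 olfactory-rich WT females).

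Immediate early genes had values below 0 in HT females throughout the list. Of 24 genes, 6 fell in females (25%, against 0.827% of all genes) and 0 rose. The median log2 fold change was -0.67, against 0.00 over all genes tested, and 24 of 24 values were below 0. At an unadjusted p under 0.05 there were 19. In males 0 were called (2 at an unadjusted p under 0.05), the median was 0.03, and 11 of 24 values were below 0. With the sexes averaged 0 were called (8 at an unadjusted p under 0.05) and the median was -0.31. In bulk tissue, fewer active cells and less RNA per active cell cannot be told apart. The members that fell were Egr2, Egr3, Fosb, Fosl2, Nr4a1 and Klf4, all of them transcription factors. The number that fell was 0 without HT female 1, 2 or 3 or WT female 2 or 4, and 1 without WT female 1, while it was 10 and 12 without WT female 3 or 5.

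The promoters of 4 of these genes are shown because they carry the letters through which activity-dependent factors are known to act. Each window holds 300 bases around a RefSeq transcription start on GRCm38.p6, written 5′ to 3′ on the strand of the gene: Fosb at chr7:19309996-19310295 (minus strand), Egr2 at chr10:67537619-67537918 (plus strand, 1 of 5 RefSeq starts), Klf4 at chr4:55532426-55532725 (minus strand) and Nr4a1 at chr15:101266596-101266895 (plus strand). Capitals mark TGACG, the core of the cyclic AMP response element, or CGTCA where it lies on the other strand, and, in Egr2, a CArG box, the letters bound by serum response factor.
Fosb: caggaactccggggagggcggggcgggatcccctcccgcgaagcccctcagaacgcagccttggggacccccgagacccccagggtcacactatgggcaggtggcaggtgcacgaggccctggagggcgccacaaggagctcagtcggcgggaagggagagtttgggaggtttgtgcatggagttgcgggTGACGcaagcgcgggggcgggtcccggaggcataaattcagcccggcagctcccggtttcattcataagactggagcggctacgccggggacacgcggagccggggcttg
Egr2: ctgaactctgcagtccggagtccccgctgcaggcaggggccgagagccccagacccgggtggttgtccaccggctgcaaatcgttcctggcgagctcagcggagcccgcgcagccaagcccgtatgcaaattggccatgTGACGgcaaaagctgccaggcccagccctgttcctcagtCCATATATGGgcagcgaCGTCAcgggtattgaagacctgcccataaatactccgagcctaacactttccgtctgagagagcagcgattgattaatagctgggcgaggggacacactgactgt
Klf4: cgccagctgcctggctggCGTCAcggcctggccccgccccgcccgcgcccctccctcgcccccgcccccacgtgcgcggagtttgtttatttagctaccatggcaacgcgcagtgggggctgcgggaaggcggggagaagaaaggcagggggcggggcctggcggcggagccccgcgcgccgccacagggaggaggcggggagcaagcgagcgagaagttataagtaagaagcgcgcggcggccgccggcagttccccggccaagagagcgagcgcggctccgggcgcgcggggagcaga
Nr4a1: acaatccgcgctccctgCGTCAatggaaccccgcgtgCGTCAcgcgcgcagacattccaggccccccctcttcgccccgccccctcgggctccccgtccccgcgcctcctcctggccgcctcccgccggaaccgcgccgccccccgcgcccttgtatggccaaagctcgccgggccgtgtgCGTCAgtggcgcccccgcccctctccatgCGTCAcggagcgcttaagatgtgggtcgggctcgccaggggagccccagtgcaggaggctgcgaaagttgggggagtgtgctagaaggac

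RefSeq promoters were matched for 20 of the 24 immediate early genes, and Egr3 and Arc were not among the 20. The core TGACG, sought on both strands, was in 15 of the 20 (75%), against 23.0% of 27025 genes with a promoter. The full element TGACGTCA, which contains the core, was in 3 (Btg2, Dusp1 and Maff; 15%), against 2.03% of all genes. The CArG box was in Egr2 alone (5%), against 1.81%. A gene counted where any of its windows held the motif. The Egr2 window from 67535249 held none of the 3 motifs, and that from 67537316 the CArG box alone. These matches describe letters in the window and not binding, and sites outside the window were not sought. Fosl2, which also fell in females, held none of the 3 motifs in its window. Members not called in females also held the core, among them Fos, Junb and Npas4.

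Fosb, a partner of Jun proteins in the AP-1 factor, had 329, 174, 237, 295 and 332 normalised counts in HT females, against 1117, 964, 497, 930.0 and 238 in WT females. In males the values were 209, 241, 424, 388 and 573 in HT, against 366, 604, 509, 301 and 247 in WT. All HT females lay below WT females 1 to 4, while WT female 5 lay among them, and the males overlapped throughout. The log2 fold change was -1.29 ± 0.34 in females (limma adjusted p = 0.0351) and -0.16 ± 0.34 in males. Without the 3 olfactory-rich WT females the female value was -0.37, limma adjusted p = 0.873.

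Egr2, which shares its DNA-binding domain type with Egr3, had 126, 81.7, 91.8, 219 and 122 in HT females, against 203, 653, 485, 297 and 441 in WT females. Its males had 163, 218, 313, 373 and 263 in HT and 453, 278, 296, 191 and 220.2 in WT. The highest HT female lay just above the lowest WT female, and otherwise the females were separate. The female log2 fold change was -1.67 ± 0.46 (limma adjusted p = 0.0385), and the male one -0.10 ± 0.46.

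Klf4, a Krüppel-like zinc finger factor, fell in females and had a value above 0 in males. Its normalised counts were 172, 147, 175, 185 and 154 in HT females, against 213, 331, 210.1, 268 and 319.8 in WT females, with no overlap. In males they were 184, 266, 232, 225 and 261 in HT, against 222, 159.7, 204, 166 and 164 in WT, with overlap. The female value was -0.66 ± 0.16 (limma adjusted p = 0.0275) and the male one 0.35 ± 0.16, and the difference between the sexes was called (1.02 ± 0.23, limma adjusted p = 0.0414). Nr4a1, an orphan nuclear receptor, had 1754, 1415, 1116, 1903 and 2017 in HT females, against 2963, 3741, 3556, 2784 and 3123 in WT females, without overlap (limma adjusted p = 0.0477). Fosl2, another AP-1 partner, fell in females with -0.93 ± 0.27 (limma adjusted p = 0.0447).

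Members of the list that were not called in females still gave large values. Fos, the classical AP-1 gene, had 449, 396, 397, 766 and 598 in HT females, against 1165, 1566, 1384, 886 and 885 in WT females, without overlap, a log2 fold change of -1.19 ± 0.37 and a limma adjusted p of 0.0579. Arc, whose protein regulates AMPA receptor uptake, had 2276, 1660.1, 1254, 3613 and 3521 in HT females, against 2854, 8933, 10584, 3779 and 6928 in WT females, which overlapped (-1.37 ± 0.49, limma adjusted p = 0.0895). Junb and Npas4, 2 further activity-dependent factors, had -0.89 ± 0.30 and -0.89 ± 0.31. Closest to 0 were Ier5 and Jun, with -0.01 ± 0.15 and -0.10 ± 0.12. In 5 genes every HT female lay below every WT female (Klf4, Fos, Nr4a1, Nr4a3 and Junb), against 173 of 18026 genes (0.96%). In males this held for 0 of 24, against 128 genes (0.71%).

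Taken as 1 level per library, the mean log2 value of the 24 genes relative to all libraries, HT females lay at -0.30, -0.61, -0.55, -0.08 and -0.10, and WT females at 0.29, 0.74, 0.49, 0.34 and 0.24. These female groups did not overlap, and WT females 3 and 5, which had the least olfactory signal of their group, lay at 0.49 and 0.24. HT males lay between -0.29 and 0.25 and WT males between -0.29 and 0.21, with full overlap. Vehicle libraries give the scale of this spread: HT vehicle females ranged from -0.55 to 0.39 and WT vehicle females from -0.57 to 0.26. Under the 14 alternatives that did not leave out a single library, the female median of the fold changes lay between -0.83 and -0.59, and with 1 library left out between -0.74 and -0.61. Without the 3 olfactory-rich WT females it was -0.62, with 22 of 24 values below 0 and 0 called.

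**Figure D2:**
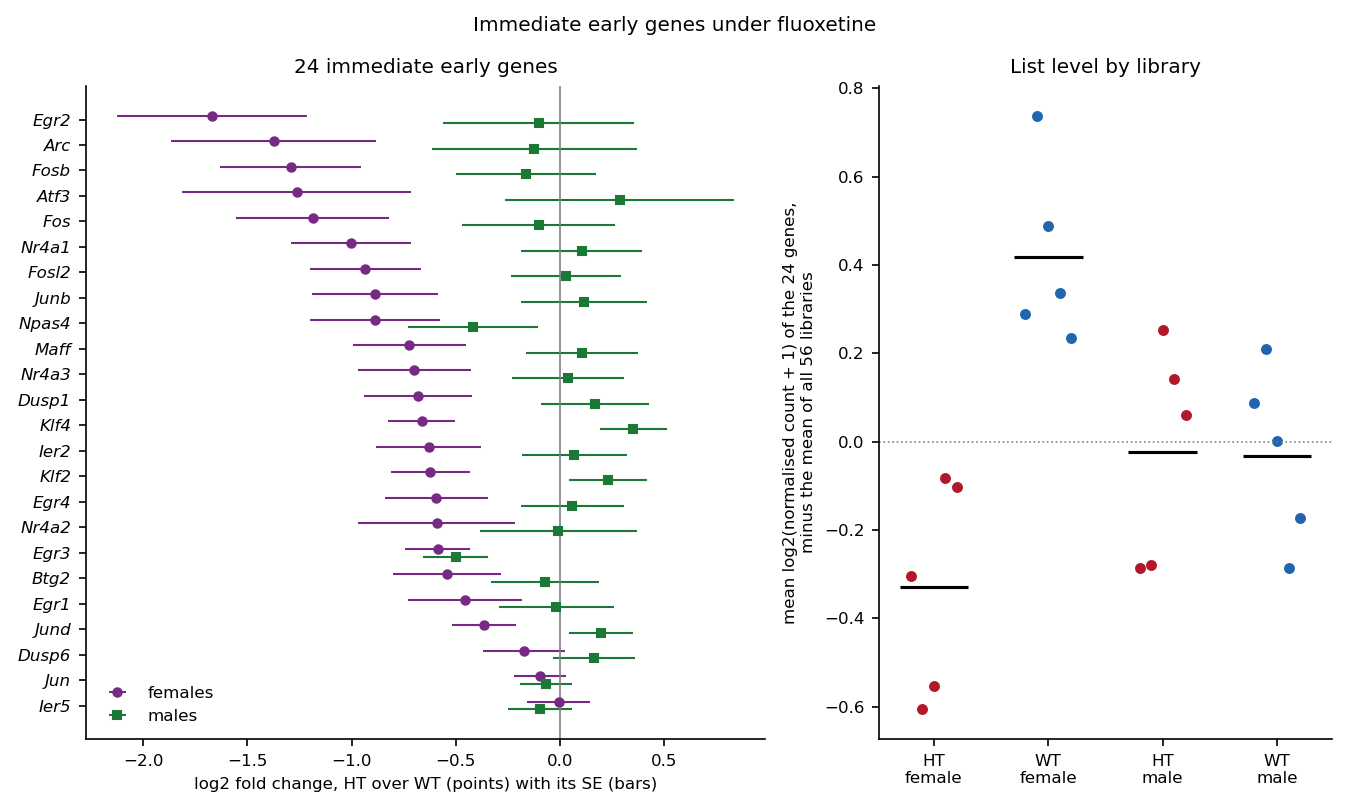
Left: log2 fold change of HT over WT under fluoxetine for 24 immediate early genes in females (circles) and males (squares), with SE bars, sorted by the female value. Right: mean log2(normalised count + 1) of the 24 genes in each of 20 libraries, relative to all 56, with group means as lines; the 5 HT females (-0.61 to -0.08) all lie below the 5 WT females (0.24 to 0.74), and the males overlap.

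The genotype difference in these genes was also read without fluoxetine. Vehicle males were 3 HT and 5 WT libraries. Under vehicle the median was 0.10 in females (0 called, against 0.0% of all genes) and -0.64 in males, close to the -0.67 of fluoxetine females, where 20 of 24 values were below 0 and 0 were called (12 at an unadjusted p under 0.05), against 0.261% of all genes. Under lithium it was 0.18 in females and 0.07 in males, with 0 called in either (0.0% of all genes). The median of the fluoxetine effect minus the vehicle effect, sexes averaged, was -0.05, with 0 called.

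Slower activity-regulated genes did not share 1 direction. Of 16, 0 rose and 1 fell in females (1.73% and 0.827% of all genes), and their median was 0.00. Gadd45b, a regulator of DNA demethylation and growth arrest, fell in females: 201, 173, 238, 259 and 259.8 normalised counts in HT, against 297, 480.4, 470.0, 344 and 283 in WT, with no overlap (-0.71 ± 0.18, limma adjusted p = 0.0351). In males Gadd45b had 0.11 ± 0.18. Nptx2, a secreted pentraxin that clusters AMPA receptors, had -0.32 ± 0.10 with the sexes averaged (limma adjusted p = 0.22), -0.42 ± 0.13 in females and -0.23 ± 0.13 in males.

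**Figure D3:**
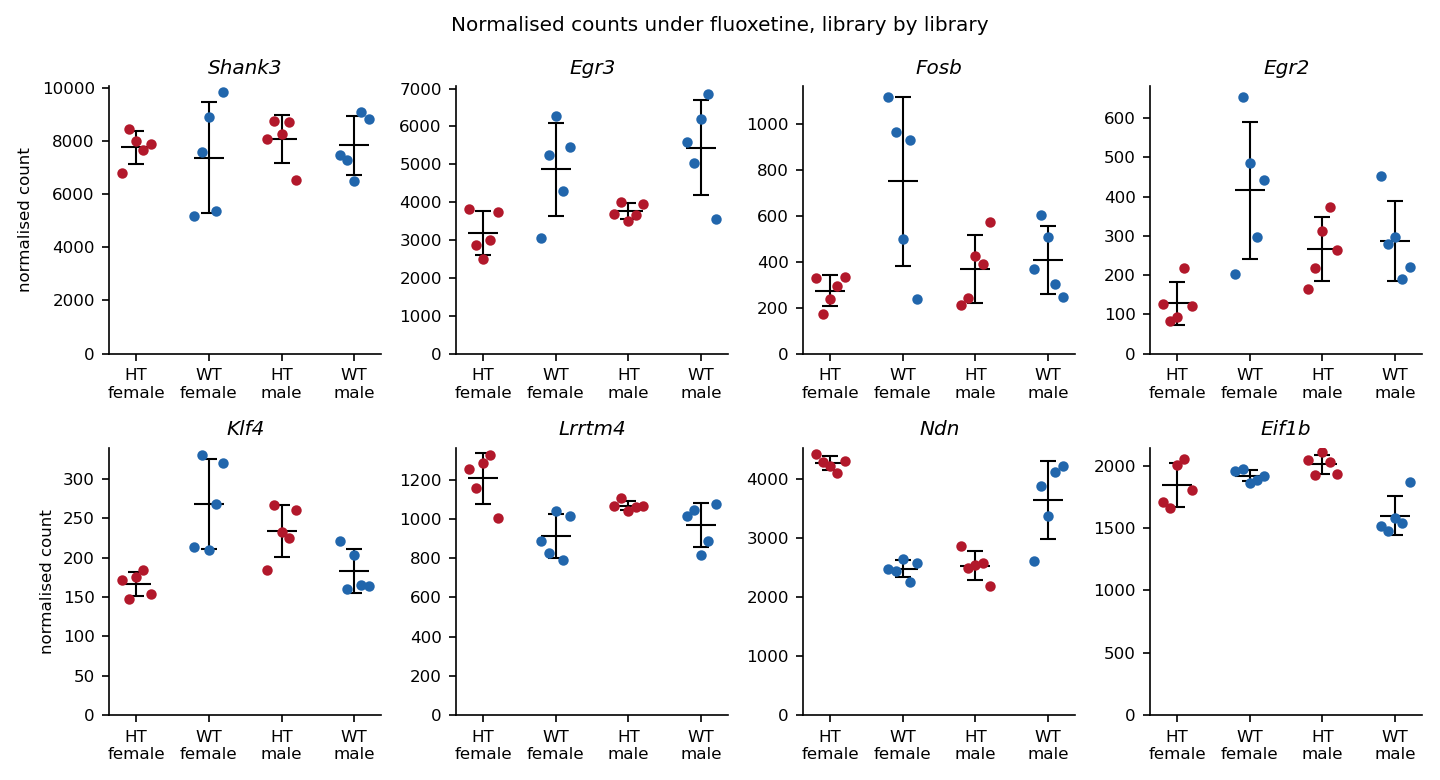
Normalised counts of 8 genes in each of the 20 fluoxetine libraries (points), with the group mean and SD (bars), HT left of WT within each sex; every y axis starts at 0. Egr3 is lower in most HT libraries of both sexes, Fosb and Egr2 in HT females, while Ndn separates HT from WT females (4109.9 to 4429 against 2260.1 to 2649).

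With the sexes averaged, the genes of smallest p after Egr3 gave small values, and none was called. Lrrtm4, a leucine-rich repeat protein that organises excitatory synapses, had 1256, 1158, 1287, 1327 and 1003 in HT females, against 887, 827, 1041, 788 and 1015 in WT females. In males it had 1065, 1105, 1041, 1062 and 1064 in HT, against 1017, 1046, 813, 885 and 1074 in WT. The ranges overlapped in both sexes, and the averaged value was 0.28 ± 0.06 (limma adjusted p = 0.148). Cntn6, a contactin of the neuronal surface, had 0.36 ± 0.09, and Nkain2, a partner of the sodium pump, 0.22 ± 0.05. Efnb2, the ligand ephrin-B2, had 0.24 ± 0.06. Nfia, a transcription factor of glial and neuronal development, had 0.33 ± 0.08, with 0.34 in females and 0.32 in males.

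Also on the higher side were Sccpdh (0.28 ± 0.07), the nuclear import receptor Kpna2 (0.25 ± 0.06), the Ras pathway scaffold Shoc2 (0.18 ± 0.04), the membrane haem-binding protein Pgrmc1 (0.15 ± 0.04) and the histone acetylation cofactor Tada2a (0.19 ± 0.05). In each of these 5 the female value was the larger: Sccpdh had 0.47 in females and 0.10 in males, and Shoc2 0.27 in females and 0.09 in males. Of 24 AMPA and NMDA receptor genes and 30 scaffolds of the postsynaptic density, 0 and 0 were called with the sexes averaged. At an unadjusted p under 0.05 there were 5 and 2, against 2023 of all 18026 genes. Abi2, an actin regulator of the scaffold list, had 0.17 ± 0.06.

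On the lower side were Dgki, a diacylglycerol kinase, Adra1a, the alpha-1A adrenergic receptor, and Tgm2, a transglutaminase, each below 0 in both sexes. Dgki had 555, 939, 813, 1006 and 963 in HT females, against 1008, 1113, 863, 1153 and 1050.1 in WT females, with overlap. In males Dgki had 868, 896, 829, 764 and 911 in HT, against 1015, 1052, 1322, 982 and 1046 in WT, without overlap. Its averaged value was -0.32 ± 0.08, with -0.30 in females and -0.34 in males. Adra1a had -0.34 ± 0.09 and Tgm2 -0.30 ± 0.08. Sipa1l1, a postsynaptic regulator of Rap GTPases that binds PSD-95, had -0.19 ± 0.04. Nfatc2, a calcium-regulated transcription factor, had -0.29 ± 0.08, Kcnip2, a subunit of A-type potassium channels, -0.24 ± 0.07, the chromatin remodeller Srcap -0.22 ± 0.05 and Gmeb2 -0.22 ± 0.05.

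Serotonin signalling genes are the closest to the drug's action. The transporter Slc6a4, the target of fluoxetine, is made by neurons of the brainstem and was not analysed here. Of 18 receptor and monoamine genes, 0 were called with the sexes averaged, with a median of 0.08. Of the 18, 5 had an unadjusted p under 0.05, against 2023 of all 18026 genes. In females 2 rose and 1 fell, where 1.73% of all genes rose and 0.827% fell, and in males 0 were called. Htr2c, the 2C receptor, had the smallest p of the list: 1034, 1172, 1921, 1962 and 1195 in HT females, against 822, 684, 1339, 363 and 918 in WT females, and 1520.3, 1263, 1550.5, 1494 and 972 in HT males, against 1051, 1376, 663, 708 and 1453 in WT males. The groups overlapped in both sexes, and the averaged value was 0.66 ± 0.19 (limma adjusted p = 0.22).

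Htr2a, the 2A receptor of cortical pyramidal cells, rose in females (0.57 ± 0.15, limma adjusted p = 0.0383). Its counts were 2315, 2017, 1783, 1689 and 1615 in HT females, against 1083, 1104, 1600.3, 929 and 1797 in WT females, where libraries 1, 2 and 4 were lowest, library 3 lay just below the lowest HT female and library 5 lay among HT. Htr1a, the 1A receptor, was also lowest in WT females 1, 2 and 4, with 793, 732, 727, 542 and 721 in HT females, against 411, 436, 721, 303 and 627 in WT females (0.55 ± 0.16, limma adjusted p = 0.0494). Htr1f, the 1F receptor, fell in females, with 61.9 to 88.6 in HT, against 88.2 to 153 in WT (-0.71 ± 0.21, limma adjusted p = 0.0485). In males the 3 had -0.20, -0.05 and -0.19. Without the 3 olfactory-rich WT females, Htr2a, Htr1a and Htr1f were at 0.14, 0.05 and -0.52 in females.

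Glutamate and GABA receptor genes gave a handful of calls in females. Of 24 AMPA and NMDA receptor subunits and auxiliary proteins, 2 rose and 1 fell, with a median of 0.04. Over all genes, 1.73% rose and 0.827% fell in females, which holds for this and the next 2 lists. Gria3, an AMPA receptor subunit, had 11403, 11113, 10876, 9978 and 10290.4 in HT females, against 5578, 7209, 10548, 5633 and 10517 in WT females (0.50 ± 0.11, limma adjusted p = 0.0209). WT females 1, 2 and 4 lay below every HT library and WT females 3 and 5 among them, and without those 3 the value was 0.03. Gria2, the subunit that makes AMPA receptors impermeable to calcium, had 22637, 22313, 23383, 20193 and 20717 in HT females, against 16176, 15829, 17679, 18921 and 18729 in WT females, with no overlap (0.32 ± 0.09, limma adjusted p = 0.047). Grin2d, an NMDA receptor subunit of interneurons, fell (-0.54 ± 0.15), with 382 to 501 in HT, against 457 to 836 in WT.

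Of 7 metabotropic glutamate receptors, 2 rose in females: Grm5 (0.45 ± 0.11), which Homer links to Shank3, and the presynaptic Grm7 (0.34 ± 0.10). The list's median was -0.18. Of 12 GABA-A receptor subunits, Gabrg1 rose (0.51 ± 0.13) and 0 fell, with a median of 0.28 and 11 of 12 values above 0. In males the medians of these 3 lists were 0.02, -0.11 and -0.08, with 0 called. Postsynaptic density scaffolds, the partners of Shank3, had 0 of 30 called in females, against 2.56% of all genes, and a median of 0.06. At an unadjusted p under 0.05 there were 7 of the 30, against 4165 of all 18026 genes.

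Among 50 autism risk genes, 3 rose and 2 fell in females (1.73% and 0.827% of all genes), with a median of -0.02. The sodium channel gene Scn2a had 12382, 12676, 11759.5, 10623 and 11799.8 in HT females, against 6421, 7764, 10654, 6045 and 12744 in WT females (0.50 ± 0.14, limma adjusted p = 0.0363). Cntn4, a contactin, had 0.46 ± 0.12. Kdm6b, a histone demethylase, had 943, 732, 851, 1114 and 887 in HT females, against 1679, 1869, 970.2, 2193 and 897 in WT females (-0.67 ± 0.19, limma adjusted p = 0.0447). In Scn2a and in Kdm6b, WT females 1, 2 and 4 stood apart from all HT females, and WT females 3 and 5 overlapped them. Without those 3 libraries Scn2a, Cntn4 and Kdm6b were at 0.02, 0.09 and -0.06.

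Flrt3, one of the genes of smallest p in females and a leucine-rich repeat ligand of latrophilins and Unc5 receptors, had 818, 852, 783, 686 and 692 in HT females, against 399, 408, 579, 349 and 659 in WT females, with no overlap (0.72 ± 0.13, limma adjusted p = 0.00721). Slitrk4, a synaptic adhesion protein, had 2328, 1730.2, 2033, 1717 and 1762 in HT females, against 1112, 1198, 1234, 1377 and 1426 in WT females, with no overlap (0.59 ± 0.11, limma adjusted p = 0.0114). Without the 3 olfactory-rich WT females Flrt3 was at 0.31 and Slitrk4 at 0.52. Dusp19, a dual-specificity phosphatase, had 274 to 364 in HT, against 186 to 289 in WT (0.55 ± 0.10). Pcnx4 (0.31 ± 0.06) and the translation initiation factor Eif1a (0.45 ± 0.09) also rose, and Zyx, a focal adhesion protein, fell (-0.46 ± 0.09).

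Other lists gave 1 or 2 calls each in females, where 1.73% of all genes rose and 0.827% fell. Of 24 cholesterol synthesis genes, 2 rose, Msmo1 (0.56 ± 0.13) and Hmgcs1 (0.38 ± 0.10), 0 fell, and the median was 0.22. Of 15 heat shock genes, which include cytosolic chaperones and mitochondrial chaperonins, 2 rose, the mitochondrial chaperonin Hspd1 (0.24 ± 0.07) and the HSP90 co-chaperone Chordc1 (0.43 ± 0.12), with a median of 0.22. The endoplasmic reticulum chaperone Canx rose (0.21 ± 0.06), the only call among the endoplasmic reticulum stress genes. Nfil3, a repressor of the clock network, fell (-0.71 ± 0.18), the only call among the circadian clock genes. In males the cholesterol and heat shock medians were -0.05 and -0.07, with 0 called.

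Markers of other cell types were read beside these values, and each of the 3 lists had 1 call in females, where 2.56% of all genes were called. Among 22 markers of myelinating oligodendrocytes, Tspan2 rose in females (0.68 ± 0.20) and 0 fell, with a median of 0.41 and 19 of 22 values above 0. Among 20 microglial markers 1 rose and 0 fell, with a median of 0.23. Among 20 endothelial and pericyte markers Cldn5, a tight junction protein, fell (-0.45 ± 0.13), with a median of -0.09. Pou3f2, a transcription factor of upper-layer neurons, rose (0.44 ± 0.11). In males 0 markers of these cells were called, and the medians of the 3 marker lists were 0.01, 0.01 and 0.02. The level of the 22 myelin markers, relative to all libraries, was -0.48 to 0.37 in HT females and -1.003 to 0.28 in WT females, that of the microglial markers -0.11 to 0.14 in HT females and -0.42 to 0.05 in WT females, and that of the endothelial and pericyte markers -0.27 to 0.08 in HT females and -0.07 to 0.12 in WT females. The part of these cells in the female calls was not tested. The 5 olfactory bulb markers had a median of -0.71 in females, with 0 called, and 0.18 in males.

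**Figure D4:**
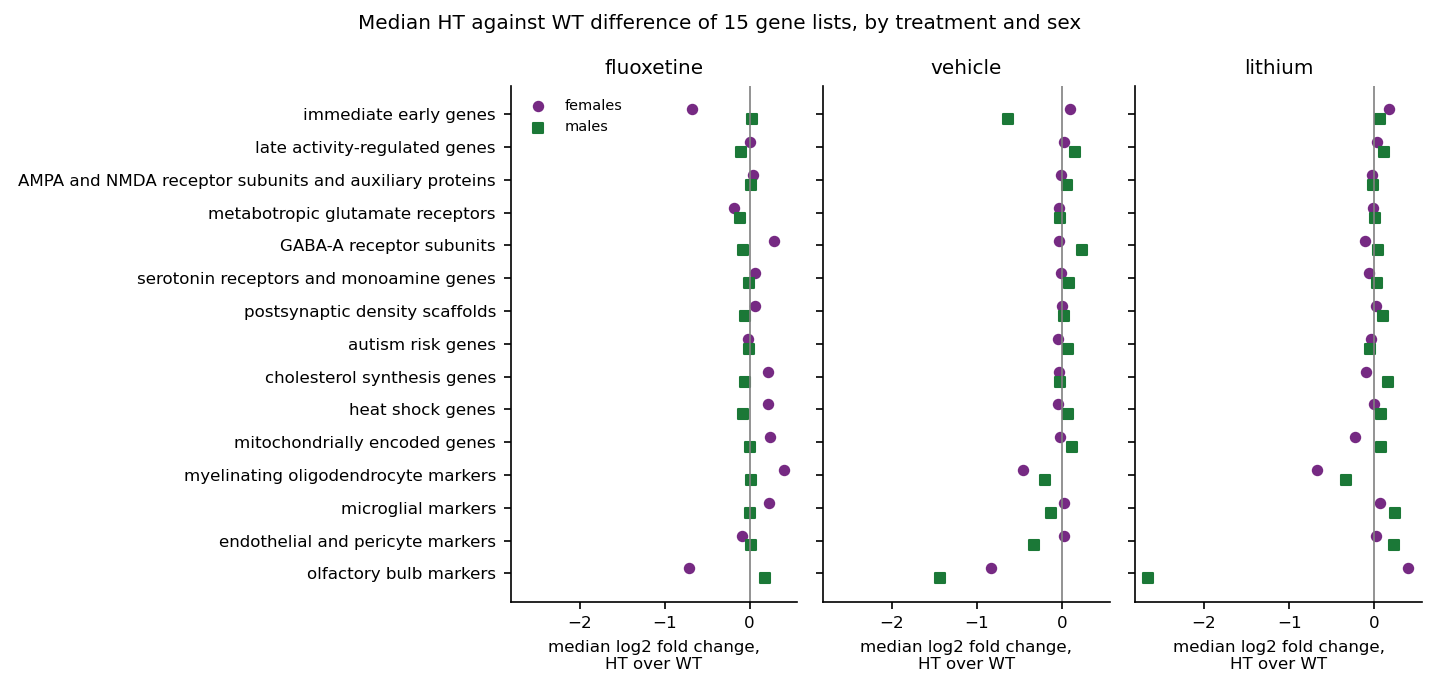
Median log2 fold change of HT over WT for 15 gene lists in females (circles) and males (squares), under fluoxetine, vehicle and lithium. Under fluoxetine the immediate early genes have the female value farthest below 0 apart from olfactory bulb markers (-0.67 and -0.71), and the male medians lie between -0.11 and 0.18.

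GC content moved with the female calls. Genes higher in HT females had a median transcript GC content of 43.0% and genes lower in HT females 55.4%, against 49.3% over all genes tested. The slope of a library's log2 values with GC content, per 10 percentage points, averaged -0.0064 in HT females and 0.094 in WT females. As a description of genes chosen on these same libraries, the mean of the higher minus the mean of the lower was 0.14 to 0.51 in HT females, and in WT females -0.93, -0.89 and -1.08 in libraries 1, 2 and 4 and -0.18 and -0.02 in libraries 3 and 5. Correcting each library for GC content and length left 8 calls in females. With the olfactory level as a covariate there were 1897, and with both 1731. What part GC content and length play in the female calls was not tested beyond these corrections.

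The 461 genes were also followed in comparisons that share no library with the fluoxetine females. In fluoxetine males 34.9% of them had the same sign as in females, against 43.6% of all genes. In vehicle males, with 3 HT and 5 WT libraries, 93.5% did (431 of 461), against 67.8% of all genes. Of the 461, 154 had an unadjusted p under 0.05 in the same direction and 0 in the opposite one. In vehicle females the share was 49.7%, against 53.6% of all genes. In lithium females it was 25.8%, against 42.4% of all genes, and at an unadjusted p under 0.05 there were 3 with the same sign and 29 with the opposite one. In lithium males it was 76.4%, against 61.8% of all genes, with 30 of the same sign and 9 of the opposite one at an unadjusted p under 0.05. The GC slope of vehicle males averaged -0.068 in HT and 0.065 in WT, again lower in HT, and its part in this share was not tested.

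**Figure D5:**
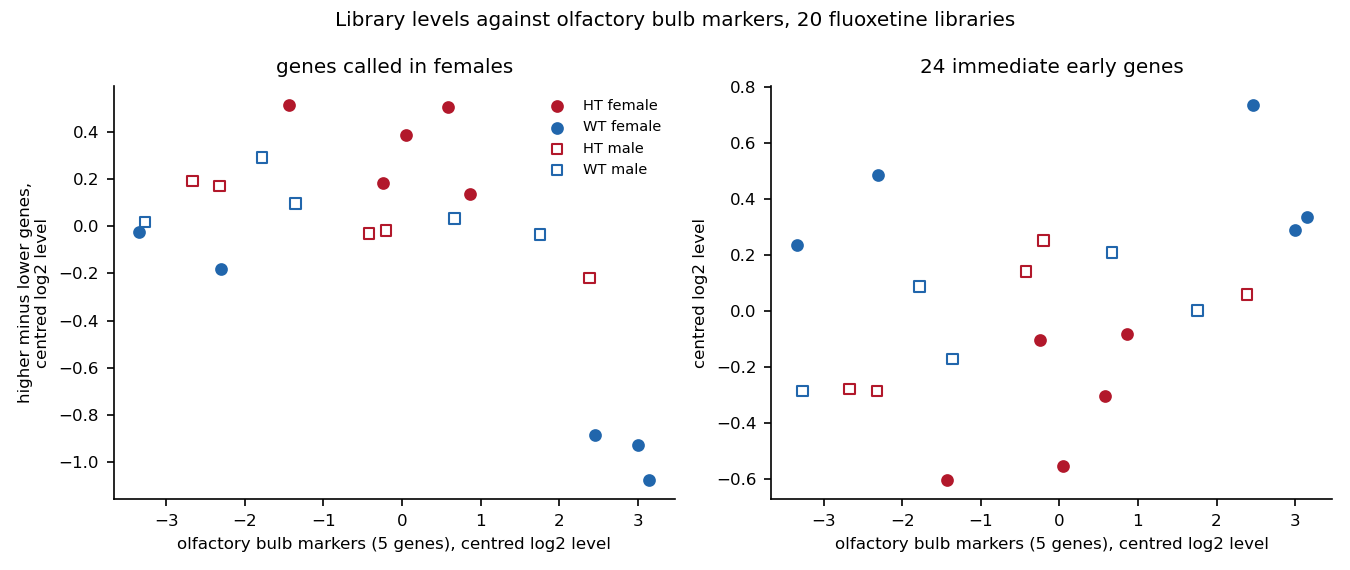
Level of olfactory bulb markers (x axis, centred log2) in the 20 fluoxetine libraries against the higher minus lower mean of the genes called in females, which were chosen on these libraries (left) and the level of 24 immediate early genes (right); filled circles are females, open squares males, red HT and blue WT. WT females 1, 2 and 4 lie at 2.46 to 3.15 on the x axis with the lowest values on the left. On the right all 5 WT females lie above all 5 HT females. What part olfactory tissue plays in either panel was not tested.

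In males a single gene was called. Eif1b, a factor that selects the start codon in translation, had 2049, 1929, 2113, 2032 and 1935 in HT males, against 1519.7, 1476, 1582, 1545 and 1869 in WT males. The groups did not overlap, and WT male 5 lay nearest to HT. The log2 fold change was 0.34 ± 0.06 (limma adjusted p = 0.0262), and it was -0.06 ± 0.06 in females, with a called difference between the sexes (0.40 ± 0.09, limma adjusted p = 0.0408). The call in males was lost without HT male 1, 3 or 4 or WT male 1, 2, 3 or 4, with limma adjusted p from 0.0846 to 0.315, and kept without the other 3. It was also lost after correction for GC content and length (adjusted p = 0.0702 in limma) and with only the compared groups in the fit (0.736). At an unadjusted p under 0.05 there were 976 genes in males, close to the 901.3 that make up 5% of those tested.

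The effect of genotype was then compared between the sexes, as the male log2 fold change minus the female one. Limma called 28 genes (0.155%), 14 above 0 and 14 below 0 (0.0777% each), edgeR called 22, and 3137 had an unadjusted p under 0.05 in limma. Among them was Ndn, which encodes necdin and is imprinted, with expression from the paternal allele. Its counts were 4429, 4290.0, 4233, 4109.9 and 4317 in HT females, against 2481, 2453, 2649, 2260.1 and 2587 in WT females, with no overlap. In males they were 2864, 2499, 2540.1, 2584 and 2186 in HT, against 2613, 3881, 3377, 4124 and 4234 in WT, with overlap. The female value was 0.78 ± 0.18, the male one -0.51 ± 0.18 and the difference -1.29 ± 0.26 (limma adjusted p = 0.0278).

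Kcnj2, an inward rectifier potassium channel, showed the same crossing, with 491 to 671 in HT females, against 298 to 432 in WT females, and 363 to 490.0 in HT males, against 475 to 656 in WT males. Its difference was -1.10 ± 0.21. Dusp19 had the smallest p (-0.78 ± 0.14, limma adjusted p = 0.0155), with 232 to 320.3 in HT males, against 316 to 344 in WT males. Nat8f3 (-1.41 ± 0.28) ran the same way. Spry1, an inhibitor of receptor tyrosine kinase signalling, and Mapk3, the kinase ERK1, ran the other way (0.67 ± 0.14 and 0.52 ± 0.11). Flrt3 and Slitrk4 were also called (-0.82 ± 0.18 and -0.75 ± 0.16). The count of 28 was 0 without the 3 olfactory-rich WT females. With single libraries left out it ranged from 0 to 1182, and leaving out HT male 2 alone kept it within 1.5 times (37). It was 0 without HT female 2, WT female 1 or WT female 4, and 774 and 1182 without WT female 3 or 5. Dusp19 lost its call without the first 3 of these, and Kcnj2, Nat8f3, Spry1, Ndn and Mapk3 without 8 to 14 of the 20 libraries.

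Whether the genotype difference under fluoxetine differed from that under the other treatments was tested directly. Against vehicle, neither tool called any of 18026 genes (limma 0, or 0.0%, and edgeR 0), and 634 had an unadjusted p under 0.05 in limma. The values of smallest p were those of Acads, a mitochondrial acyl-CoA dehydrogenase (0.44 ± 0.11), and Egr3. For Acads the genotype effect was 0.07 ± 0.07 under fluoxetine and -0.37 ± 0.08 under vehicle. The fluoxetine and vehicle effects themselves called 0 genes each with the sexes averaged.

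Against lithium, limma again called 0 genes (0.0%), as did edgeR, with 1591 at an unadjusted p under 0.05 in limma. Mctp1, a calcium-binding membrane protein, had 0.75 ± 0.15 (limma adjusted p = 0.15), from 0.28 ± 0.10 under fluoxetine and -0.48 ± 0.11 under lithium. Tspan2 had 0.91 ± 0.20 (limma adjusted p = 0.186), from 0.41 ± 0.14 under fluoxetine and -0.50 ± 0.15 under lithium. Shank3 had -0.26 ± 0.12 (limma adjusted p = 0.541), and -0.50 (limma adjusted p = 0.00839) without the 14 most olfactory libraries. That setting leaves 2 WT fluoxetine females and 2 HT lithium females. For the 22 myelin markers the median genotype difference was 0.18 under fluoxetine, -0.33 under vehicle and -0.50 under lithium, with 0 called in each treatment and in each difference between treatments. The fluoxetine effect minus the vehicle effect was above 0 in 22 of 22, with 7 at an unadjusted p under 0.05. Over all genes, 52.1% were above 0 and 634 of 18026 were under that p. The fluoxetine effect minus the lithium effect was likewise above 0 in 22 of 22, with 14 under that p, against 51.2% and 1591 of 18026 over all genes. These 2 differences share the fluoxetine libraries. The 22 genes mark the same cell type and were read in the same libraries, so they are not 22 independent observations. The count against lithium was 14 without the 3 olfactory-rich WT females, and 8, 2, 1 and 9 without HT lithium female 1 or 5, WT lithium female 3 or WT lithium male 1.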

How the data were processed

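Poly(A) RNA of prefrontal cortex was sequenced from TruSeq Stranded mRNA libraries, per the labels' protocols. The submitters' processing notes name Salmon 0.11.2, R 3.6.0, DESeq2 1.19.11 and the build GRCm38. The deposited values are a signal: gene counts that the authors divided by 1 size factor per library. Whole reads were recovered from them (100% of values within 1e-06 of a whole number). Of 59 columns, 3 match no sample and were not used. Of 57 labelled samples, 1 has no matching column and is not analysed here. Replicates were all distinct: over 40 pairs within the fluoxetine groups, chi-square divided by its degrees of freedom was at least 4.71.

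Of 18088 listed genes (3 at 0 everywhere), 18026 reached a value of 10 in 3 or more libraries and were tested as log2(value + 1), which understates the fold change of low genes. A single limma fit with trend (version 3.58.1 under R 4.3.3) held all 12 groups, leaving 44 residual degrees of freedom, with two-sided contrasts and Benjamini-Hochberg adjustment over all genes. The recovered reads were also fitted with the quasi-likelihood test of edgeR 4.0.16, scaled by TMM. The fits were tested on simulated counts. The members, gene lists and tests were chosen with earlier results of these data known. Genes were named by p and by list, as values where none was called, and predicted genes, pseudogenes and genes with clone names were not named. Some genes are not reported here. Library levels of a list are means of centred log2 values. Promoters came from RefSeq (GRCm38.p6), other coordinates from GENCODE on GRCm38. Alternatives were other scalings, filters, pseudocounts and weights, covariates for olfactory or striatal markers, correction for GC content and length by splines with 4 degrees of freedom, the replicate number as a block, and leaving out libraries. Leaving out 3 olfactory-rich WT females was chosen after seeing the data.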

Additional observations from a re-analysis of the deposited data

Results flagged for a closer look

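In 284 sets of 5 values, each of 1 gene in 1 fluoxetine group, 1 library stood far from the other 4 in 15 (Dixon's test). Chance alone gives about 1 in 20, or 14.2. HT fluoxetine female libraries accounted for 5. Kcnip2 was at 2561 in HT female 1, Hmgcs1 at 11340 and Canx at 11776 in the same library. Pcnx4 was at 1207 in HT female 2 and Htr1a at 542 in HT female 4, against 721 to 793 in the others.

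Among the remaining groups, Gria3 was at 8502 in HT male 5. Pou3f2 was at 1299 in WT female 5 and Cldn5 at 868 in WT female 3. WT male 3 was apart in Pgrmc1 (5685), Dgki (1322) and Htr1f (126), and WT male 1 in Abi2 (8489). WT male 5 was apart in Dusp19 (344), Spry1 (213) and Eif1b (1869), and Eif1b in males was at 0.39 (log2 fold change) without it, against 0.34 with it.

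For 10 of the 28 genes called, those named in the report, the genotype effect differed between the sexes in limma's test of the difference itself, as male minus female log2 fold change. Those below 0 were Nat8f3 (-1.41, adjusted p = 0.0278), Ndn (-1.29, adjusted p = 0.0278), Kcnj2 (-1.10, adjusted p = 0.0278), Flrt3 (-0.82, adjusted p = 0.0408), Dusp19 (-0.78, adjusted p = 0.0155) and Slitrk4 (-0.75, adjusted p = 0.0387). Those above 0 were Klf4 (1.02, adjusted p = 0.0414), Spry1 (0.67, adjusted p = 0.0278), Mapk3 (0.52, adjusted p = 0.0278) and Eif1b (0.40, adjusted p = 0.0408).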

How the results depend on the processing

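With the sexes averaged, 0 genes were called; edgeR gave 1, array weights 1071, olfactory signal as covariate 104, that covariate after GC and length correction 113, and leaving out the 14 most olfactory libraries (5 of the 20 under fluoxetine) or the 3 olfactory-rich WT females 1 each. Leaving out single libraries gave 0 to 143. In females, 461 became 4439 under array weights, 1897 with olfactory signal as covariate, 8 after GC and length correction, 1731 with both, 0 without the 14 libraries, 0 without the 3 libraries and 1 with the compared groups only, and 4 to 3123 with single libraries left out. In males, 1 became 4 with olfactory signal as covariate and 0 after GC and length correction, with both, without the 14 libraries and with the compared groups only, and 0 to 1 with single libraries left out. For the difference between the sexes, 28 became 4 without the trend, 2146 under array weights, 729 with olfactory signal as covariate, 5 after GC and length correction, 727 with both, 0 without the 14 libraries, 0 without the 3 libraries and 4 with the compared groups only, and 0 to 1182 with single libraries left out. Against vehicle the count was 0 in every setting run. Against lithium, 0 became 165 under array weights, 103 with olfactory signal as covariate, 2 with both corrections, 519 without the 14 libraries and 14 without the 3, and 0 to 9 with single libraries left out. Leaving out the 14 libraries keeps 2 WT fluoxetine females and 2 HT lithium females. The cause of these shifts was not tested. Shank3 changed sign to -0.11 with the sexes averaged, and to -0.27 in females, without the 14 or the 3 libraries, and to -0.020 in males without WT male 3 (-0.020 to 0.12 over single libraries left out).

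The replicate number as a block gave 0 calls with the sexes averaged, 349 in females, 1 in males, 24 for the difference between the sexes and 0 against vehicle or lithium. Same-numbered HT and WT libraries correlated at -0.23 to 0.24 in their deviations from the group means. Of 10, 1 correlated best with its own number, so no pairing by number was seen. A weak pairing could be missed in this way, and the litters are not given. Depth was 23839573 reads or more in every fluoxetine library. In simulated females, whose libraries carried no olfactory or GC differences, 53% of genes changed by 0.5 on the log2 scale were recovered with 5 libraries per group.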

Other observations

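Lists that belong to no comparison above gave the following values under fluoxetine, none with a called member unless named. Of 78 cytosolic ribosomal protein genes, 72 had values below 0 in HT females (median -0.12, 19 at an unadjusted p under 0.05), and 36 in HT males (median 0.01), each against WT of the same sex. Over all genes, 49.8% of values were above 0 in females and 50.9% in males. In females 4165 of 18026 genes had an unadjusted p under 0.05, a share similar to 19 of 78. Of 14 oligodendrocyte progenitor markers, 11 were below 0 in females (median -0.18) and 4 in males (median 0.21). Of 15 meningeal fibroblast and collagen genes, 13 were below 0 in females (median -0.31) and 7 in males (median 0.00). For the 5 red blood cell genes the female median was -0.40 and the male one 0.47, with 0 at an unadjusted p under 0.05 in either sex. Of 14 upper-layer excitatory neuron markers, 2 rose in females (median 0.18), and of 14 deep-layer markers 1 fell (median 0.18), where 1.73% of all genes rose and 0.827% fell. Of 19 glucocorticoid-responsive genes, 13 were below 0 in females (median -0.23, 5 at an unadjusted p under 0.05) and 11 in males (median -0.07). For the 13 mitochondrially encoded genes the female median was 0.24 and the male one 0.00.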
